A study of Mus musculus with 22 samples.

Results

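The expression of 10 genes of the integrated stress response was examined in the ventricles of mouse hearts at E13.5, in mid-gestation. The genes were Gdf15, Atf4, Atf5, Ddit3, Trib3, Chac1, Asns, Psat1, Phgdh and Mthfd2, taken by symbol from the 48709 gene rows of the 2 deposited count tables. All 10 were present in both tables and all 10 passed the filter on low counts, which left 19752 genes for testing in the first experiment and 17675 in the second. Gdf15 was chosen by its high level in LIN9 KO hearts and the other 9 for their known place beside it in the pathway. The values of Gdf15 in all LIN9 KO against LIN9 wt comparisons are therefore a description and were not tested. Earlier results of these data were known when all 10 genes were chosen, so the other 9 were not a blind choice either.

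Every library came from an embryo line carrying Nkx2.5-Cre, which is active in cardiac precursor cells, so deletion was limited to cells with a history of Nkx2.5 expression and their descendants while the blood cells, macrophages and other cells of the ventricle could keep the alleles. LIN9 KO hearts were Lin9 fl/fl and the hearts labelled LIN9 wt were, according to the study, heterozygous Lin9 fl/+. Sav1 KO hearts were Sav1 fl/fl and Sav1 wt hearts were Sav1 +/+. LIN9 is a subunit of the MuvB complex, which activates or represses cell cycle genes depending on its partners, and SAV1 is a scaffold protein of the Hippo kinase pathway. Experiment 1 compared 3 LIN9 wt with 3 LIN9 KO libraries. Experiment 2 held 3 libraries of each of 4 genotypes, LIN9 wt Sav1 wt, LIN9 KO Sav1 wt, LIN9 wt Sav1 KO and LIN9 KO Sav1 KO, at one embryonic stage. The labels do not say whether replicates were separate embryos or pools. A caption of the study describes the LIN9 KO and LIN9 wt ventricles as 2 biological replicates, each run in triplicate. The 3 libraries of a group may therefore not be independent, and p-values measure the spread between these libraries only.

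The integrated stress response is a pathway in which several kinases, each sensing a different strain on the cell, phosphorylate the translation initiation factor eIF2. General translation then slows, while the messenger RNA of the transcription factor ATF4 is translated more efficiently through upstream open reading frames, so that ATF4 protein can rise with little change in its RNA. ATF4 works with partners such as DDIT3 (CHOP) on genes for amino acid synthesis, redox balance and feedback. GDF15 is a secreted hormone of the TGF-beta superfamily that is released by stressed tissues, the embryonic and adult heart among them, and it is also known as a target of p53.

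Total counts were 9485599 to 9615274 per library in experiment 1 and 2770741 to 2999877 in experiment 2, so 1 read was worth 0.103 to 0.108 CPM, reads scaled to a common library size, and 0.328 to 0.373 CPM, respectively. The RNA of the targeted genes is a limited check of the labels, since only part of each gene is floxed and reads from the rest count as well. Lin9 differed by -0.31 on the log2 scale in experiment 1 (edgeR quasi-likelihood test with Benjamini-Hochberg adjustment, adjusted p = 0.13), by -0.80 with Sav1 wt (adjusted p = 0.0027) and by -0.16 with Sav1 KO (adjusted p = 0.586). Sav1 differed by -0.50 between Sav1 KO and Sav1 wt with LIN9 wt (adjusted p = 0.317) and by -0.23 with LIN9 KO (adjusted p = 0.465).

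The sequences upstream of Gdf15 and of Trib3, Ddit3 and Psat1, which passed the test in all 3 LIN9 comparisons, are shown first, because these are the genes the results turn on. Each is the stretch before a RefSeq transcription start on mm10, in the direction of the gene, with at most 200 bases printed. Gdf15 lies at chr8:70629393-70632456 on the minus strand and its upstream stretch is chr8:70632457-70632656. Trib3 lies at chr2:152337422-152344032 on the minus strand, with the stretch chr2:152344061-152344260. Ddit3 lies at chr10:127290774-127296288 on the plus strand, with the stretch chr10:127290593-127290773. Psat1 lies at chr19:15904678-15947337 on the minus strand, and its stretch chr19:15925060-15925259 is inside the longer gene span of the GENCODE M21 annotation. No base is capitalised in these 4 sequences, since none of the 4 motifs searched occurs in them.
Gdf15: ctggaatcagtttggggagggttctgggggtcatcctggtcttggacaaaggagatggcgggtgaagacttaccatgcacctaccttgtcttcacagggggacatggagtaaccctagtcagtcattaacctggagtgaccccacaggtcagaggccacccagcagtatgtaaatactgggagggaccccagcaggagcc
Trib3: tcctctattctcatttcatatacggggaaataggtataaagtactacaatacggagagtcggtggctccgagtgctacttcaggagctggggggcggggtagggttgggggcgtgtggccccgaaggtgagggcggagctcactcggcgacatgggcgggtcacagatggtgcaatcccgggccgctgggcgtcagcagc
Ddit3: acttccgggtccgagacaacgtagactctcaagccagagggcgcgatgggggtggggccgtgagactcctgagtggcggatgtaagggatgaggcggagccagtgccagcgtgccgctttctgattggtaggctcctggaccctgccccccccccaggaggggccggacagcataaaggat
Psat1: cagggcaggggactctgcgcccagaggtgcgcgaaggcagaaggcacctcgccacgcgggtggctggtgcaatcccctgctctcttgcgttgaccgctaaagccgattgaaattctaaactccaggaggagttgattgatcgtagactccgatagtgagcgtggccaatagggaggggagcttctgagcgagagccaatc

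The 4 motifs were searched on both strands in the 250 bases before each RefSeq start, in 13 windows of the 10 genes and 32851 windows in all. The C/EBP-ATF element, TGATGNAAN, which ATF4 dimers bind, was present in 3.44% of all windows and in the windows of Chac1, 194 bases before the RefSeq start at position 119351242, and Asns, 23 bases before a RefSeq start at position 7693209. In GENCODE M21 Chac1 lies at chr2:119351229-119354381 on the plus strand, and Asns at chr6:7675169-7693254 on the minus strand, so that the Asns match is inside the annotated gene, in an untranslated exon. The cell cycle homology region, TTTGAA, which MuvB binds, was present in 16% of all windows and 14 bases before an internal start of Gdf15, within an intron of the longer transcript. Its variant TTCGAA was present in 1.34% of windows and the cyclic AMP response element, TGACGTCA, in 1.55%, and neither was found in the windows of the 10 genes. The 3 matches are shown in capitals within 30 bases each, for Chac1 at chr2:119351038-119351067 on the plus strand, for Asns at chr6:7693213-7693242 on the minus strand and for Gdf15 at chr8:70632096-70632125 on the minus strand. A match describes letters only and was not tested for binding.
Chac1: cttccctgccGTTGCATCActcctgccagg
Asns: cccagccacaTGATGAAACttcccgcacgc
Gdf15 internal start: actgttcgtacagggtTTTGAAggattggt

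Gdf15, the secreted hormone, was low in every heart with LIN9 wt and high in every heart with LIN9 KO. In experiment 1 it measured 1.85, 1.58 and 1.04 CPM in the LIN9 wt libraries, from 18, 15 and 10 reads, and 13.1, 14.3 and 14.7 CPM in the LIN9 KO libraries, from 121, 136 and 143 reads. In experiment 2 the LIN9 wt Sav1 wt libraries held 1.33, 1.03 and 1.04 CPM, from 4, 3 and 3 reads, and the LIN9 KO Sav1 wt libraries 23.3, 23.9 and 12.7 CPM, from 71, 73 and 34 reads. The lowest LIN9 KO library, replicate 3 with Sav1 wt, was still far above all LIN9 wt libraries.

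With Sav1 deleted as well, the LIN9 KO and LIN9 wt libraries were also far apart. The LIN9 wt Sav1 KO libraries held 1.35, 1.35 and 1.36 CPM, from 4 reads each, and the LIN9 KO Sav1 KO libraries 15.7, 17.9 and 18.1 CPM, from 46, 51 and 51 reads. Gdf15 was 12.4-fold higher, with a log2 difference of 3.63 ± 0.34 (SE) and a 95% interval of 2.97 to 4.29. It was 9.33-fold higher in experiment 1, with a log2 difference of 3.22 ± 0.22 (SE), and 17.1-fold higher with Sav1 wt in experiment 2, with a log2 difference of 4.10 ± 0.34 (SE). The interval in experiment 2 with Sav1 wt, 3.43 to 4.77, rests on 10 reads in the LIN9 wt Sav1 wt group.

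Ordered by group mean, Gdf15 stood at 20.0 ± 6.33 CPM in LIN9 KO Sav1 wt hearts, 17.3 ± 1.37 in LIN9 KO Sav1 KO hearts and 14.0 ± 0.818 in LIN9 KO hearts of experiment 1, followed by 1.49 ± 0.415 in LIN9 wt hearts of experiment 1, 1.35 ± 0.00965 in LIN9 wt Sav1 KO hearts and 1.13 ± 0.171 in LIN9 wt Sav1 wt hearts (SD, n = 3 each). The LIN9 wt Sav1 KO libraries held equal numbers of reads, so the SD of that group reflects library scaling only and not the spread between hearts. The experiments were normalised separately. Within experiment 2 the 2 LIN9 KO groups overlapped, and the 2 LIN9 wt groups were apart by no more than 1 read per library, although they did not overlap, as was so with Sav1 KO higher for 5.97% of tested genes.

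**Figure D1:**
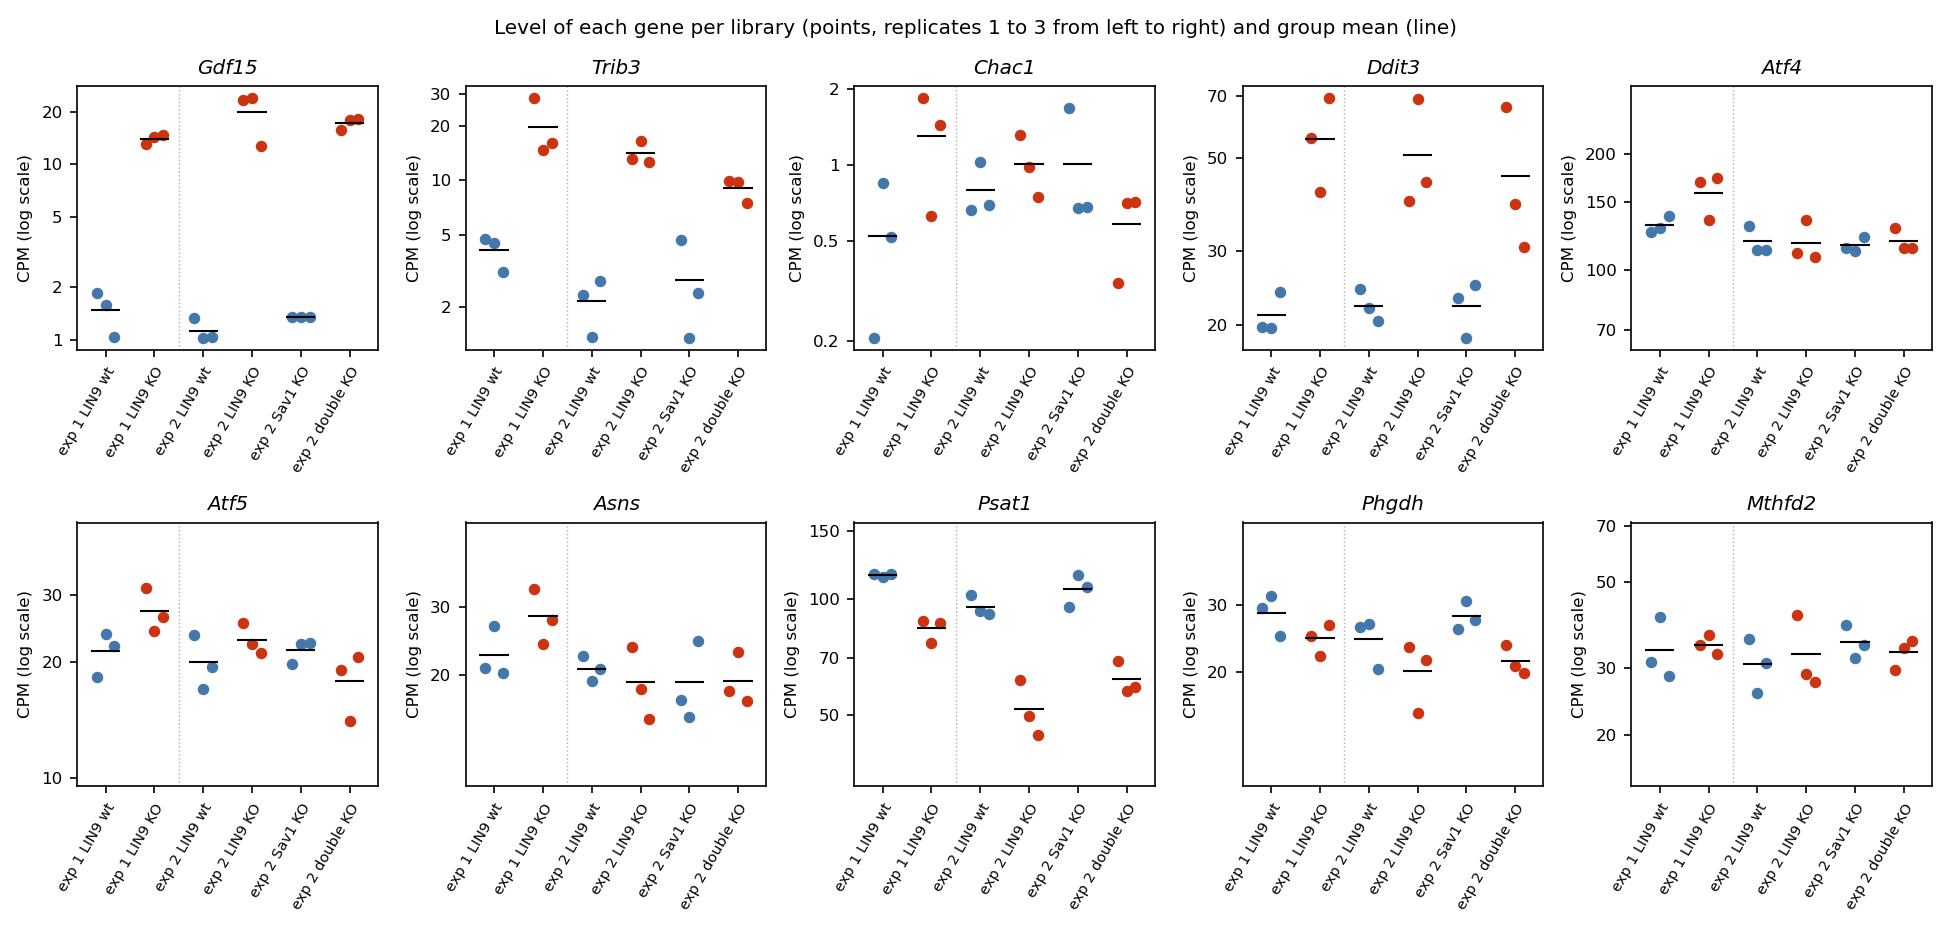
Level of each of the 10 genes in CPM on a log axis in the 6 genotype groups. Points are libraries, replicates 1 to 3 from left to right, and lines are group means, with blue for LIN9 wt and red for LIN9 KO backgrounds. Gdf15 and Trib3 separate the LIN9 KO from the LIN9 wt groups with no overlap, and the Atf4 groups lie close together.

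Among the transcription factors, the RNA of Ddit3 differed with LIN9 while that of Atf4 and Atf5 did not pass the test. Ddit3, which encodes the pro-apoptotic factor CHOP, measured 19.7, 19.6 and 23.9 CPM in LIN9 wt and 55.5, 41.3 and 69.3 CPM in LIN9 KO libraries of experiment 1. In experiment 2 it measured 24.3, 21.9 and 20.4 CPM in LIN9 wt Sav1 wt, 39.4, 68.8 and 43.6 CPM in LIN9 KO Sav1 wt, 23.2, 18.6 and 24.9 CPM in LIN9 wt Sav1 KO, and 66.1, 38.7 and 30.6 CPM in LIN9 KO Sav1 KO libraries. The LIN9 KO groups spread widely, but no LIN9 KO library overlapped a LIN9 wt library.

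Ddit3 rose 2.63-fold in experiment 1, by 1.39 ± 0.17 (SE) on the log2 scale (edgeR, adjusted p = 0.000157), 2.28-fold with Sav1 wt, by 1.19 ± 0.31 (adjusted p = 0.02), and 2.03-fold with Sav1 KO, by 1.02 ± 0.32 (adjusted p = 0.0411). The calls of experiment 2 lie near the threshold. Without any 1 of the LIN9 wt Sav1 wt libraries 1, 2 and 3 the adjusted p with Sav1 wt was 0.0593, 0.0796 and 0.0714. With Sav1 KO it was 0.109, 0.133 and 0.0765 without the LIN9 wt Sav1 KO libraries 1, 2 and 3 and 0.0671 without replicate 2 of LIN9 KO Sav1 KO. The log2 difference with Sav1 KO itself was 0.61 without replicate 1 of LIN9 KO Sav1 KO. In the annotation, 10.9% of the exonic bases of Ddit3 lie under exons of other entries, among them Mars on the opposite strand, and the part of such reads in its counts was not tested.

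Atf4, the central transcription factor of the pathway, had the highest level per exonic kilobase of the 10 genes in every group, 55.6 mean CPM per kb in LIN9 wt and 67.4 in LIN9 KO hearts of experiment 1. It lies at chr15:80255184-80257541. Its libraries measured 126, 129 and 138 CPM in LIN9 wt and 169, 135 and 173 CPM in LIN9 KO hearts of experiment 1, where replicate 2 of LIN9 KO fell inside the LIN9 wt range. The log2 difference was 0.28 ± 0.11 (SE), with an adjusted p of 0.0946 that passed the threshold at 0.0176 without that library, with a difference of 0.39. In experiment 2 Atf4 ranged from 108 to 135 CPM over all 12 libraries, with log2 differences between LIN9 KO and LIN9 wt of -0.01 with Sav1 wt (95% interval -0.222 to 0.198, adjusted p = 0.958) and 0.03 with Sav1 KO (-0.176 to 0.244, adjusted p = 0.861). The ordering of libraries followed that of Ddit3 at the top, since the library with the highest Atf4 also had the highest Ddit3 in 6 of 6 groups. That pair was singled out after the values were seen, from 45 pairs, of which one other, Atf5 and Asns, shared the highest library in 5 of 6 groups.

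Atf5, a related factor under the same kind of translational control, lies at chr7:44812256-44816658. It ranged from 18.3 to 23.7 CPM in LIN9 wt and from 24.1 to 31.2 CPM in LIN9 KO hearts of experiment 1. These groups did not overlap, but the log2 difference of 0.35 ± 0.14 (SE) had an adjusted p of 0.0909. In experiment 2 the differences were 0.20 with Sav1 wt (adjusted p = 0.478) and -0.26 with Sav1 KO (adjusted p = 0.317), and the groups overlapped.

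Trib3, a pseudokinase induced by ATF4 and DDIT3 that dampens their activity, differed the most after Gdf15. It measured 4.74, 4.53 and 3.12 CPM in LIN9 wt and 28.5, 14.8 and 16 CPM in LIN9 KO hearts of experiment 1. In experiment 2 it measured 2.33, 1.37 and 2.77 CPM in LIN9 wt Sav1 wt, 13.1, 16.4 and 12.7 CPM in LIN9 KO Sav1 wt, 4.71, 1.35 and 2.39 CPM in LIN9 wt Sav1 KO, and 9.88, 9.85 and 7.47 CPM in LIN9 KO Sav1 KO libraries. All LIN9 KO libraries lay above all LIN9 wt libraries of their experiment.

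Trib3 rose 4.77-fold in experiment 1, by 2.25 ± 0.28 (SE) on the log2 scale (edgeR, adjusted p = 0.000242), 6.44-fold with Sav1 wt, by 2.69 ± 0.34 (adjusted p = 7.27e-07), and 3.19-fold with Sav1 KO, by 1.67 ± 0.34 (adjusted p = 0.000549). The direction held in 3 of 3 libraries each time. The difference between the last 2 changes was -1.01 ± 0.52 (SE) on the log2 scale and did not pass the test of the interaction (adjusted p = 0.764). Without replicate 1 of LIN9 wt Sav1 KO this difference was -0.40.

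Chac1, which degrades glutathione and is another ATF4 and DDIT3 target, was near the limit of these libraries. It had 2, 8 and 5 reads in LIN9 wt and 17, 6 and 14 reads in LIN9 KO libraries of experiment 1, and from 1 to 5 reads in each library of experiment 2. The log2 differences were 1.30 in experiment 1 (95% interval 0.285 to 2.31, adjusted p = 0.0915), 0.35 with Sav1 wt (-1.02 to 1.72, adjusted p = 0.781) and -0.76 with Sav1 KO (-2.23 to 0.711, adjusted p = 0.52). The intervals of experiment 2 were too wide at this depth to place Chac1. Without replicate 2 of LIN9 KO in experiment 1 the difference was 1.63 and its adjusted p 0.0301.

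The 4 enzymes did not move as a group. Psat1, the aminotransferase of serine synthesis, was lower in LIN9 KO hearts. It measured 116, 114 and 116 CPM in LIN9 wt and 87.6, 76.9 and 86.7 CPM in LIN9 KO hearts of experiment 1. In experiment 2 it measured 102, 92.8 and 91.3 CPM in LIN9 wt Sav1 wt, 61.7, 49.5 and 44.3 CPM in LIN9 KO Sav1 wt, 95.2, 115 and 107 CPM in LIN9 wt Sav1 KO, and 68.8, 57.7 and 59.0 CPM in LIN9 KO Sav1 KO libraries. LIN9 KO and LIN9 wt libraries of one experiment did not overlap.

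Psat1 fell by 0.46 on the log2 scale in experiment 1 (SE 0.0974, adjusted p = 0.00329), to 0.727 of the LIN9 wt level. It fell by 0.87 with Sav1 wt (SE 0.123, adjusted p = 4.62e-06), to 0.546, and by 0.77 with Sav1 KO (SE 0.121, adjusted p = 2.01e-05), to 0.585. This is the opposite direction to Gdf15, Trib3 and Ddit3, and it was lower in 3 of 3 LIN9 KO libraries in each comparison.

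Phgdh, the first enzyme of serine synthesis (chr3:98313170-98339990), ranged from 24.9 to 31.6 CPM in LIN9 wt and from 22.1 to 26.6 CPM in LIN9 KO hearts of experiment 1, with log2 differences of -0.22 (adjusted p = 0.254), -0.28 with Sav1 wt (adjusted p = 0.275) and -0.38 with Sav1 KO (adjusted p = 0.0994). With Sav1 KO the groups did not overlap, at 25.9, 30.7 and 27.3 CPM against 23.5, 20.8 and 19.9 CPM. The tables also hold a pseudogene of Phgdh, so its reads may be split. Asns, the asparagine synthetase, measured 20.2 to 26.7 CPM in LIN9 wt and 24.0 to 33.3 CPM in LIN9 KO hearts of experiment 1, with log2 differences of 0.33 (adjusted p = 0.134), -0.11 (adjusted p = 0.747) and 0.02 (adjusted p = 0.959). Mthfd2, the mitochondrial one-carbon enzyme (chr6:83305691-83325908), had the smallest differences of the 4 enzymes in experiment 1 and with Sav1 wt, 0.05 (adjusted p = 0.858) and 0.09 (adjusted p = 0.765), and -0.09 with Sav1 KO (adjusted p = 0.744), and ranged from 25.7 to 41.0 CPM over experiment 2.

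**Figure D2:**
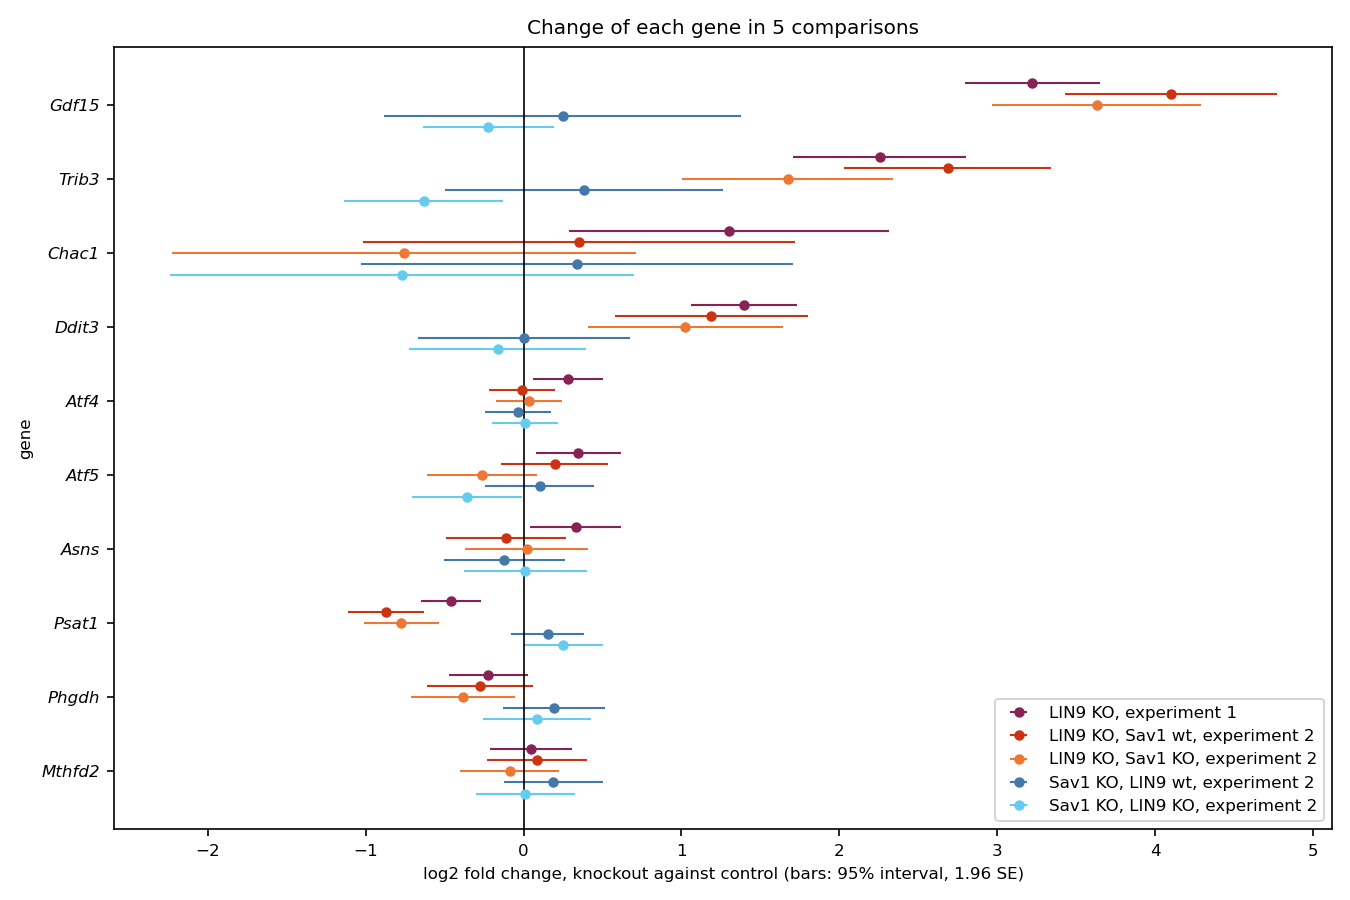
Log2 difference of each gene in the 5 pairwise comparisons, with 95% intervals. Gdf15, Trib3 and Ddit3 lie above 0 and Psat1 below 0 in the 3 LIN9 comparisons, while in the 2 Sav1 comparisons the values of Gdf15 are 0.25 and -0.22.

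Counted together, 3 of the 9 genes other than Gdf15 passed the threshold in each LIN9 comparison, with Trib3 and Ddit3 higher and Psat1 lower each time. The share of all tested genes that passed was 20.9% in experiment 1, 23.2% with Sav1 wt and 23.4% with Sav1 KO, of which 11.1%, 12.7% and 11.8% were higher and 9.78%, 10.5% and 11.6% lower in LIN9 KO. The 20.9% were 4131 genes, against 2722 without LIN9 wt replicate 3. Groups without overlap were found, with LIN9 KO higher, for 18.4%, 18.3% and 21.9% of tested genes and, with LIN9 KO lower, for 18.1%, 16.8% and 19.2%. The genes were picked around Gdf15 and nothing is read from these counts. The median log2 difference of the 10 genes was 0.339, 0.141 and -0.0345. It includes the values of Gdf15 used in the choice, so it is a description and is not compared with other genes. Over all tested genes, given for the lists below, the median was 0.0156, 0.00835 and 0.0321. The 2 comparisons in experiment 2 are fitted with 1 estimate of the spread, and each LIN9 group also serves in a Sav1 comparison, so their values are given side by side only.

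Deleting Sav1 did not move any of the 10 genes past the threshold. With LIN9 wt 0 of 10 passed by edgeR and 0 at an unadjusted p under 0.05, while 0.0170% of all genes passed. With LIN9 KO 0 of 10 passed, 1 at an unadjusted p under 0.05, while 0.0113% of all genes passed, which were 2 genes, against 377 without LIN9 KO Sav1 wt replicate 3 and 0 to 15 without any other 1 library. By DESeq2 0 passed in both. Gdf15 differed by 0.25 on the log2 scale with LIN9 wt (95% interval -0.884 to 1.38, adjusted p = 0.999) and by -0.22 with LIN9 KO (-0.636 to 0.192, adjusted p = 0.722). The first rests on 3 or 4 reads in each library, and its interval includes a 2-fold rise.

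The gene with an unadjusted p under 0.05 was Trib3, which with LIN9 KO was lower in Sav1 KO than in Sav1 wt hearts, at 7.47 to 9.88 against 12.7 to 16.4 CPM. The log2 difference was -0.63 ± 0.26 (SE, adjusted p = 0.322). In this comparison Atf5 and Chac1 were also lower with no overlap between groups, Atf5 at 14.1 to 20.6 against 21.2 to 25.3 CPM with a log2 difference of -0.36 (adjusted p = 0.44). Lower groups without overlap were found for 7.87% of all genes there. Psat1 differed by 0.15 with LIN9 wt (adjusted p = 0.999) and by 0.25 with LIN9 KO (adjusted p = 0.447). No gene passed the test of the interaction between LIN9 and Sav1, which called 0% of all genes by edgeR and 0 by DESeq2. Without LIN9 KO Sav1 wt replicate 3 it called 64 genes, without LIN9 wt Sav1 wt replicate 1 it called 2 and with all genes of at least 1 count 17. Of the 9 genes tested there 0 passed by DESeq2 and 0 had an unadjusted p under 0.05 by edgeR.

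Other genes of the pathway were taken from lists, described by their counts and medians in the LIN9 comparisons in the order experiment 1, Sav1 wt and Sav1 KO. Of 9 genes for the eIF2 kinases, the eIF2 alpha subunit (Eif2s1), the eIF2 phosphatase subunits and the mitochondrial relay, 2, 1 and 2 were higher and 1, 2 and 1 lower, with medians of -0.0537, 0.107 and -0.0401. Without 1 library the higher counts were 1 to 2, 1 and 1 to 2 and the lower 1, 1 to 3 and 1 to 2, with 1 higher with Sav1 KO without replicate 3 of either group and 1 lower with Sav1 wt without LIN9 KO Sav1 wt replicate 2. Ppp1r15a (GADD34), a regulatory subunit of the eIF2 phosphatase in negative feedback, rose by 1.14 (adjusted p = 0.00939), 0.93 (adjusted p = 0.000135) and 0.78 (adjusted p = 0.00115). It measured 20.1 to 23.7 CPM in LIN9 wt and 37.2 to 70.1 CPM in LIN9 KO hearts of experiment 1. Dele1, listed in the tables as 0610009O20Rik, which relays mitochondrial stress to the eIF2 kinase HRI, fell by 0.57, 0.59 and 0.62. The kinase HRI itself, Eif2ak1, is abundant in erythroid cells and rose by 0.40 in experiment 1 (adjusted p = 0.0166), a call that was lost, at adjusted p 0.055 to 0.073, without LIN9 wt replicate 1 or 3 or LIN9 KO replicate 1 or 2. In experiment 2 Eif2ak1 differed by 0.14 (adjusted p = 0.529) and -0.04 (adjusted p = 0.87).

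Of 4 transcriptional regulators listed as partners of ATF4 (Atf3, Cebpb, Cebpg and Nupr1), 2, 1 and 0 were higher and 0, 1 and 1 lower, with medians of 0.596, 0.432 and 0.49 and 3 of 4 positive each time. The 1 higher with Sav1 wt was 0 without LIN9 KO Sav1 wt replicate 2, and the 0 with Sav1 KO was 1 with a mean count of at least 10, with the replicate block and with 6 libraries. Atf3, a stress-induced factor of the ATF family, differed by -0.18 in experiment 1 (adjusted p = 0.455) and fell by 0.73 with Sav1 wt (adjusted p = 0.00384) and 0.84 with Sav1 KO (adjusted p = 0.000787). Cebpg, a common dimer partner, differed by 0.05 (adjusted p = 0.8), 0.01 (adjusted p = 0.988) and 0.03 (adjusted p = 0.917).

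Of 10 tested genes among 11 other stress outputs of ATF4, 4, 8 and 5 were higher and 0 lower, with medians of 0.48, 0.743 and 0.615. Stc2, a secreted glycoprotein, rose by 1.49, 1.33 and 1.25 on the log2 scale. Ero1l, the oxidase that drives disulfide formation in the endoplasmic reticulum, rose by 0.85, 1.33 and 1.09. Sesn2, which restrains mTORC1 signalling, rose by 0.57, 0.68 and 1.07, with an adjusted p of 0.071 in the comparison with Sav1 wt without LIN9 wt Sav1 wt replicate 2. These 3 were higher in all 3 comparisons. The 11th gene, Fgf21, a hormone often induced together with Gdf15, had at most 2 reads in any library. The count of 8 was 5 without replicate 2 of LIN9 wt Sav1 wt.

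Of 11 enzymes of serine, proline and one-carbon metabolism, 4, 1 and 1 were higher and 2, 2 and 2 lower, with medians of 0.0816, 0.0948 and -0.0687. Without 1 library the higher counts were 3 to 4, 1 and 0 to 2 and the lower 0 to 3, 2 to 3 and 1 to 2, with 0 lower in experiment 1 without LIN9 wt replicate 1 or LIN9 KO replicate 1. Mthfd1l, the mitochondrial formate-producing enzyme, rose by 0.44, 0.66 and 0.41, with adjusted p of 0.0781 in experiment 1 without LIN9 wt replicate 3 and of 0.117, 0.0644 and 0.244 with Sav1 KO without LIN9 wt Sav1 KO replicate 2 or 3 or LIN9 KO Sav1 KO replicate 2. Gldc of the glycine cleavage system rose by 1.19 and Pycr1 of proline synthesis by 0.59 in experiment 1, where Shmt1, the cytosolic serine hydroxymethyltransferase, fell by 0.38, with adjusted p of 0.0948, 0.0668 and 0.067 without LIN9 wt replicate 1 or 3 or LIN9 KO replicate 1. In experiment 2 Gldc differed by 0.64 and 0.85 (adjusted p = 0.225 and 0.0971), the latter passing at 1.41 (adjusted p = 0.0216) without LIN9 wt Sav1 KO replicate 1, and Pycr1 by 0.40 and 0.35 (adjusted p = 0.133 and 0.169), while Shmt1 differed by -0.24 with Sav1 wt (adjusted p = 0.256) and fell by 0.40 with Sav1 KO (adjusted p = 0.0384), a call lost in 4 of 6 fits without 1 library, at up to 0.15. Of 20 cytosolic aminoacyl-tRNA synthetases, 0, 2 and 0 were higher and 1, 4 and 7 lower, with medians of 0.0698, -0.134 and -0.24. The 0 higher in experiment 1 was 1 by DESeq2 and with all genes of at least 1 count. It was also 1 without LIN9 wt replicate 1 or LIN9 KO replicate 3. The 2 higher with Sav1 wt were 0 or 1 in each of the 6 fits without 1 library, 0 by DESeq2 and 1 with RLE factors, and the 4 lower were 7 without LIN9 KO Sav1 wt replicate 1. Farsb, a subunit of the phenylalanine enzyme and the 1 gene lower in experiment 1, fell by 0.31, 0.35 and 0.35, close to the threshold. Its call in experiment 1 was lost without any library but LIN9 KO replicate 3, with an adjusted p of up to 0.17, and its calls in experiment 2 were lost in 2 and 3 of 6 such fits, up to 0.0749 and 0.0764, and by DESeq2, at 0.0508 and 0.0589. The count of 7 was 3, 3 and 4 without LIN9 wt Sav1 KO replicates 1, 2 and 3 and 4 and 2 without LIN9 KO Sav1 KO replicates 1 and 2.

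Of 6 tested amino acid transporters, 2, 1 and 2 were higher and 1, 0 and 1 lower, with medians of 0.167, 0.228 and -0.00835. The 0 lower with Sav1 wt was 1 without LIN9 KO Sav1 wt replicate 1 or 2. Slc3a2, the heavy chain of heteromeric transporters, rose by 0.88, 0.84 and 0.43. Slc1a4, a neutral amino acid transporter, rose by 1.41 in experiment 1 (adjusted p = 0.0187), where Slc1a5, a glutamine transporter, fell by 0.37 (adjusted p = 0.0165). The first call was lost without LIN9 wt replicate 3 or LIN9 KO replicate 2 (adjusted p = 0.0686 and 0.0862) and the second without LIN9 wt replicate 1 or 3 or LIN9 KO replicate 1 (adjusted p = 0.0582, 0.0876 and 0.091). In experiment 2 Slc1a4 differed by 0.21 with Sav1 wt (adjusted p = 0.41) and rose by 0.61 with Sav1 KO (adjusted p = 0.00967), and Slc1a5 differed by -0.29 (adjusted p = 0.0764, and 0.0302 at -0.41 without LIN9 KO Sav1 wt replicate 2) and fell by 0.68 (adjusted p = 8.07e-05). Slc7a5 had 0 reads in all 18 libraries. All of its exonic bases lie within the span of another annotated gene, and this was also so for Spg7 of the mitochondrial list and for the marker genes Actc1 and Alas2, which had 0 reads as well.

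Chaperones were counted for 2 compartments. Of 18 chaperones and degradation factors of the endoplasmic reticulum, 9, 4 and 1 were higher and 0 lower, with medians of 0.356, 0.208 and 0.187. Pdia4, a disulfide isomerase, rose by 0.54, the chaperone Hsp90b1 by 0.54 and the secreted factor Manf by 0.53 in experiment 1. In experiment 2 none of these 3 passed, with Pdia4 at 0.20 and 0.21 (adjusted p = 0.132 and 0.0996), Hsp90b1 at 0.23 and 0.29 (adjusted p = 0.33 and 0.2) and Manf at 0.27 and 0.08 (adjusted p = 0.135 and 0.726). Pdia6, not among these 3, was the 1 gene of this list called higher in all 3 comparisons. Under other settings Hsp90b1 passed with Sav1 wt without LIN9 KO Sav1 wt replicate 1 (adjusted p = 0.0233) and with Sav1 KO with all genes of at least 1 count (0.0316) or 6 libraries (0.03), and Pdia4 passed with Sav1 KO at a mean count of at least 10 (0.0473). That count of 9 rested on single libraries, since it was 2 without LIN9 wt replicate 1, 1 without LIN9 wt replicate 3, 1 without LIN9 KO replicate 1 and 3 without LIN9 KO replicate 2, and the 4 with Sav1 wt became 2 without LIN9 wt Sav1 wt replicate 2 or replicate 3. The 1 with Sav1 KO became 0 without any of the LIN9 wt Sav1 KO libraries or LIN9 KO Sav1 KO replicate 2, and 3 with all genes of at least 1 count, with a mean count of at least 10 and with 6 libraries. Pdia4 lost its call without these same 4 libraries of experiment 1 (adjusted p 0.0689 to 0.0922) and Hsp90b1 without LIN9 wt replicate 2 or 3 or LIN9 KO replicate 1 (adjusted p 0.0532 to 0.0804). Of 11 tested mitochondrial chaperones and proteases, 0 were higher and 5, 4 and 5 lower, with medians of -0.258, -0.237 and -0.288. The 0 higher was 1 in experiment 1 without LIN9 KO replicate 3 and with all genes of at least 1 count, and 1 with Sav1 wt without LIN9 KO Sav1 wt replicate 3. The matrix chaperones Hspd1 fell by 0.49, 0.86 and 0.74 and Hspa9 by 0.51, 0.58 and 0.63, and the protease Htra2 fell by 0.55 in experiment 1 and differed by -0.36 and -0.29 in experiment 2 (adjusted p = 0.0772 and 0.162). Hspd1, Hspa9, Dnaja3 and Trap1 were called lower in all 3 comparisons. The 5 in experiment 1 became 3 without LIN9 wt replicate 1, LIN9 wt replicate 2 or LIN9 KO replicate 1, and Hspd1 stood at adjusted p 0.0505 and 0.0503 without LIN9 wt replicate 1 or 2. The difference between the 2 compartments was not tested.

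**Figure D3:**
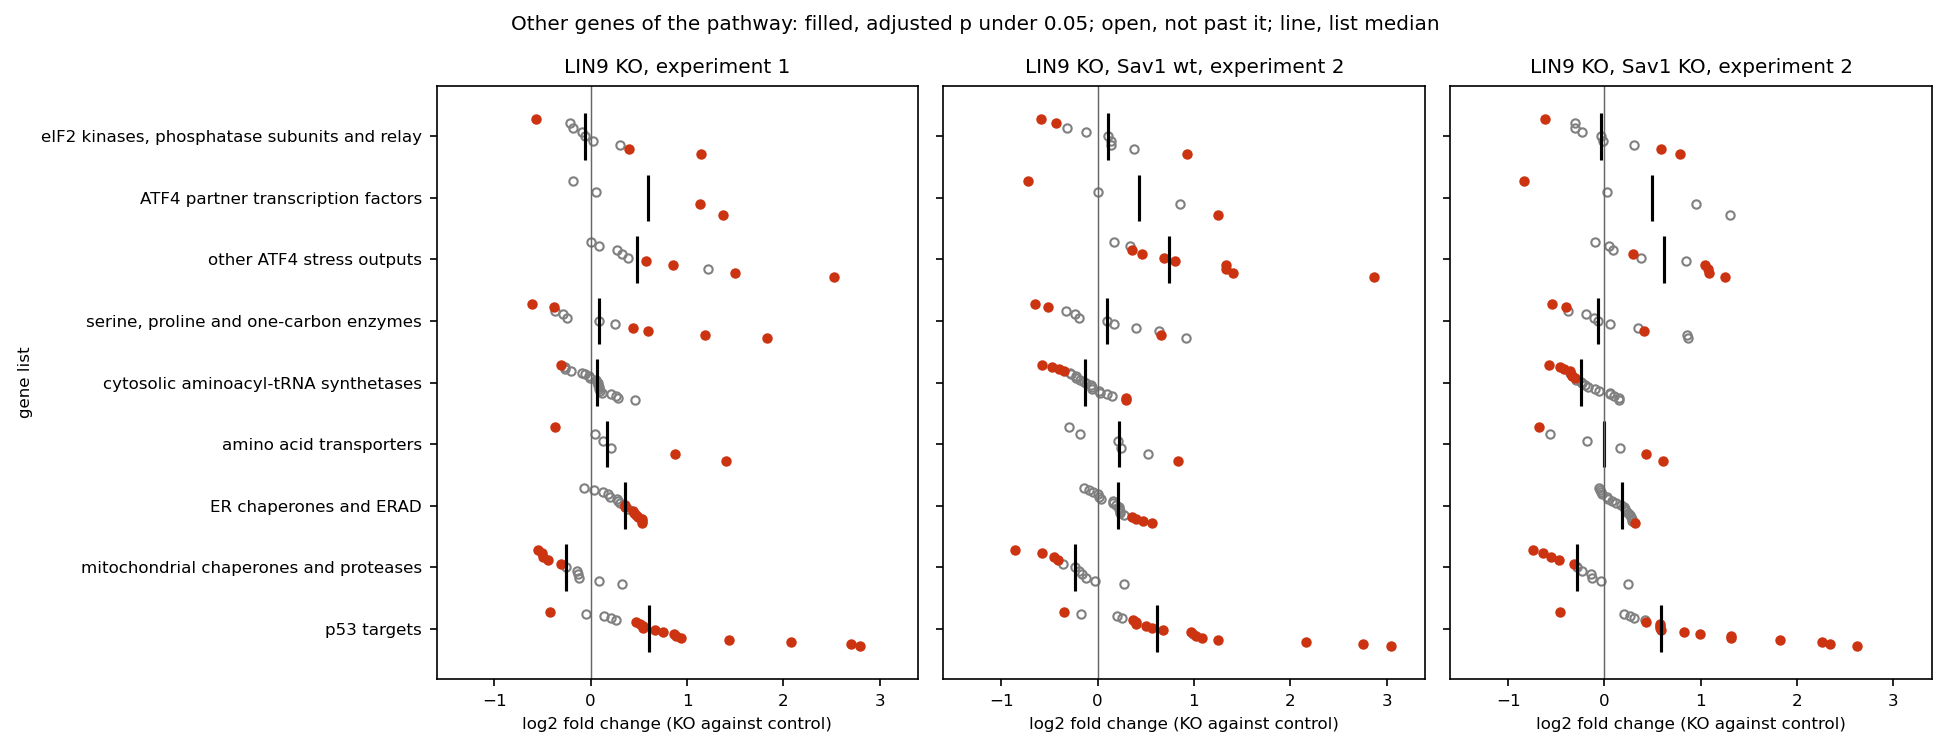
Log2 difference of every tested gene of 9 gene lists in the 3 LIN9 comparisons. Filled points passed the threshold, open points did not, and lines are medians. The other ATF4 outputs and the p53 targets lie mainly above 0, the mitochondrial chaperones mainly below 0, and the tRNA synthetases have medians of 0.0698, -0.134 and -0.24.

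The receptor side was nearly silent in these ventricles, where Gfral, the receptor of GDF15, had at most 1 read in any library. Its signalling partner Ret had 0 to 13 reads per library and differed by 0.29 in experiment 1 (adjusted p = 0.763), -0.75 with Sav1 wt (adjusted p = 0.661) and -0.41 with Sav1 KO (adjusted p = 0.805).

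GDF15 is also induced by p53, and 18 p53 targets were counted for comparison. In each of the 3 LIN9 comparisons 13 were higher and 1 lower, 11 of them higher in all 3, with medians of 0.608, 0.618 and 0.585. Pmaip1 (NOXA), a pro-apoptotic BCL2 family member, rose by 2.79, 3.04 and 2.34, and measured 1.85 to 3.32 CPM in LIN9 wt against 14.8 to 23.8 CPM in LIN9 KO hearts of experiment 1. Eda2r, a death-domain receptor, rose by 2.70, 2.76 and 2.62, and Cdkn1a (p21), the cyclin-dependent kinase inhibitor, by 2.08, 2.16 and 2.25. Perp, an adhesion protein, fell by 0.42, 0.35 and 0.46. Whether genes of the p53 list or of the ATF4 lists answer to both pathways was not examined, so the lists are not separate readouts. Which of the 2 pathways the Gdf15 values go with was not tested.

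The genes whose pattern over the 18 libraries was most like that of Gdf15 were found by Pearson's r of log2 CPM centred within each experiment, among 12116 genes. These were Clu (clusterin, r = 0.992), Cdkn1a (0.99), Psrc1 (a microtubule-associated p53 target, 0.987), Gdf6 (a TGF-beta superfamily ligand, 0.986) and Lox (lysyl oxidase, 0.986). Clu rose by 2.12, 2.21 and 2.30, Psrc1 by 0.96, 1.05 and 1.04, Gdf6 by 1.74, 1.70 and 1.70 and Lox by 1.38, 1.27 and 1.22. Of the other 9 genes Trib3 came 278th (r = 0.937) and Ddit3 824th (r = 0.874), while Atf4 came 3851st (r = 0.355) and Psat1 had r = -0.89. The points fall into LIN9 wt and LIN9 KO libraries, so r mainly reflects the separation of these groups and is given as a description.

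**Figure D4:**
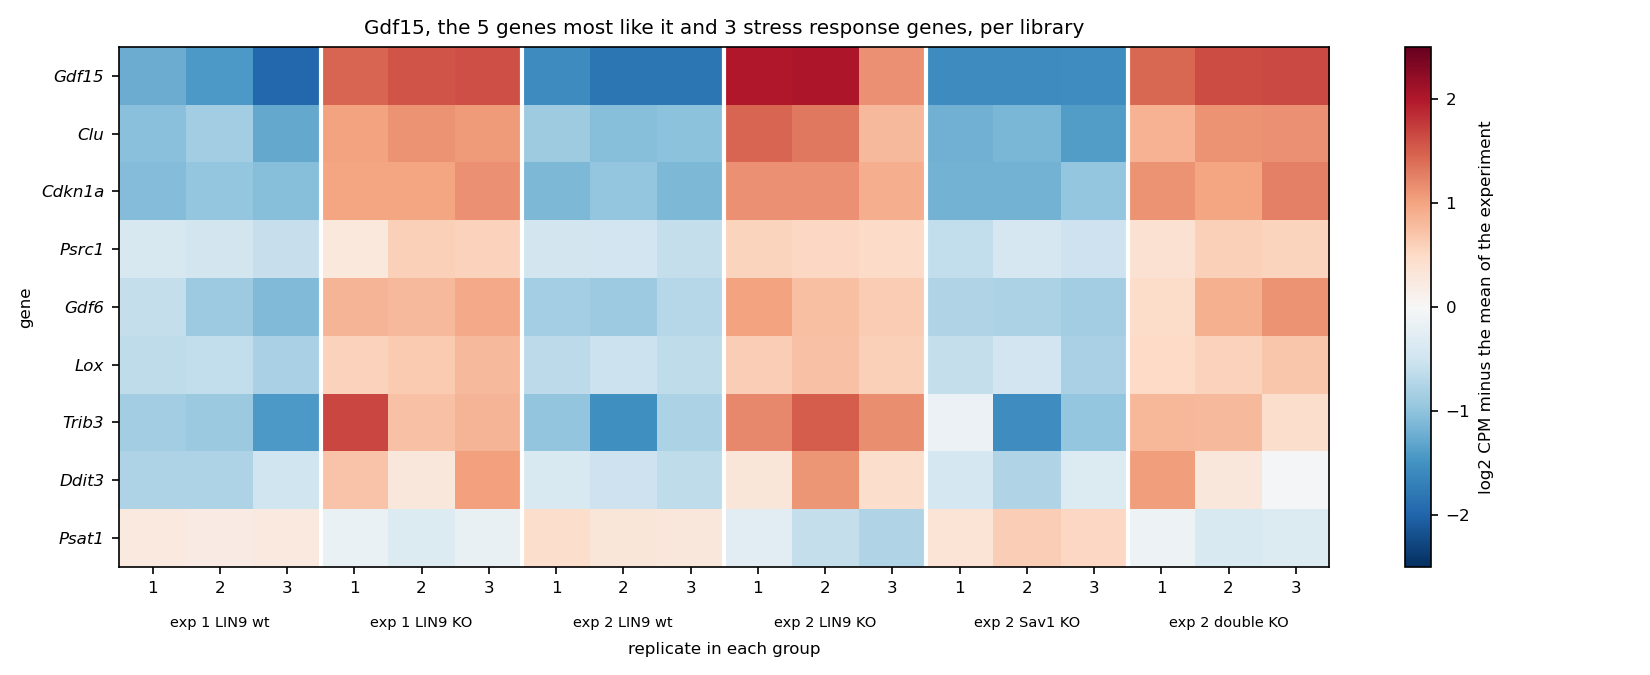
Log2 CPM minus the mean of the experiment for Gdf15, the 5 genes most like it, Trib3, Ddit3 and Psat1 in the 18 libraries, as a colour scale. The 5 genes were picked by their r with Gdf15 over these same libraries, so their pattern follows from the choice. The LIN9 KO libraries are above and the LIN9 wt libraries below the mean, except that Psat1 has the reverse order and that 1 LIN9 KO library of Ddit3 lies just below the mean, at -0.06.

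The RNA of cell type markers also differed between LIN9 KO and LIN9 wt libraries, and in bulk RNA fewer cells of a type cannot be told apart from less RNA per cell. Of 11 tested ventricular cardiomyocyte markers, 9, 8 and 9 were lower and 0 higher in the 3 LIN9 comparisons, with summed levels of 22524 to 23060 CPM in LIN9 wt and 10130 to 14016 CPM in LIN9 KO hearts of experiment 1. The sums were 24943 to 26086 against 12190 to 13873 CPM with Sav1 wt and 26884 to 27980 against 12277 to 15219 CPM with Sav1 KO. Of 14 erythroid markers, 13, 14 and 13 were higher, with sums of 7936 to 10979 against 34983 to 90857 CPM in experiment 1, 4266 to 5360 against 21232 to 39070 CPM with Sav1 wt and 3343 to 4386 against 10721 to 30912 CPM with Sav1 KO. Of 14 macrophage markers, 11, 8 and 12 were higher (106 to 114 against 186 to 219 CPM in experiment 1), of 7 fibroblast and cushion markers 6, 6 and 7 (2263 to 2583 against 4642 to 5053 CPM), and of 7 epicardial markers 6, 6 and 6 (302 to 316 against 537 to 617 CPM). Of 8 endothelial markers 2, 2 and 3 were higher and 0, 1 and 1 lower, with medians of -0.0189, 0.144 and 0.13. The part of these cell types in the values of Gdf15, Trib3, Ddit3 and Psat1 was not tested.

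**Figure D5:**
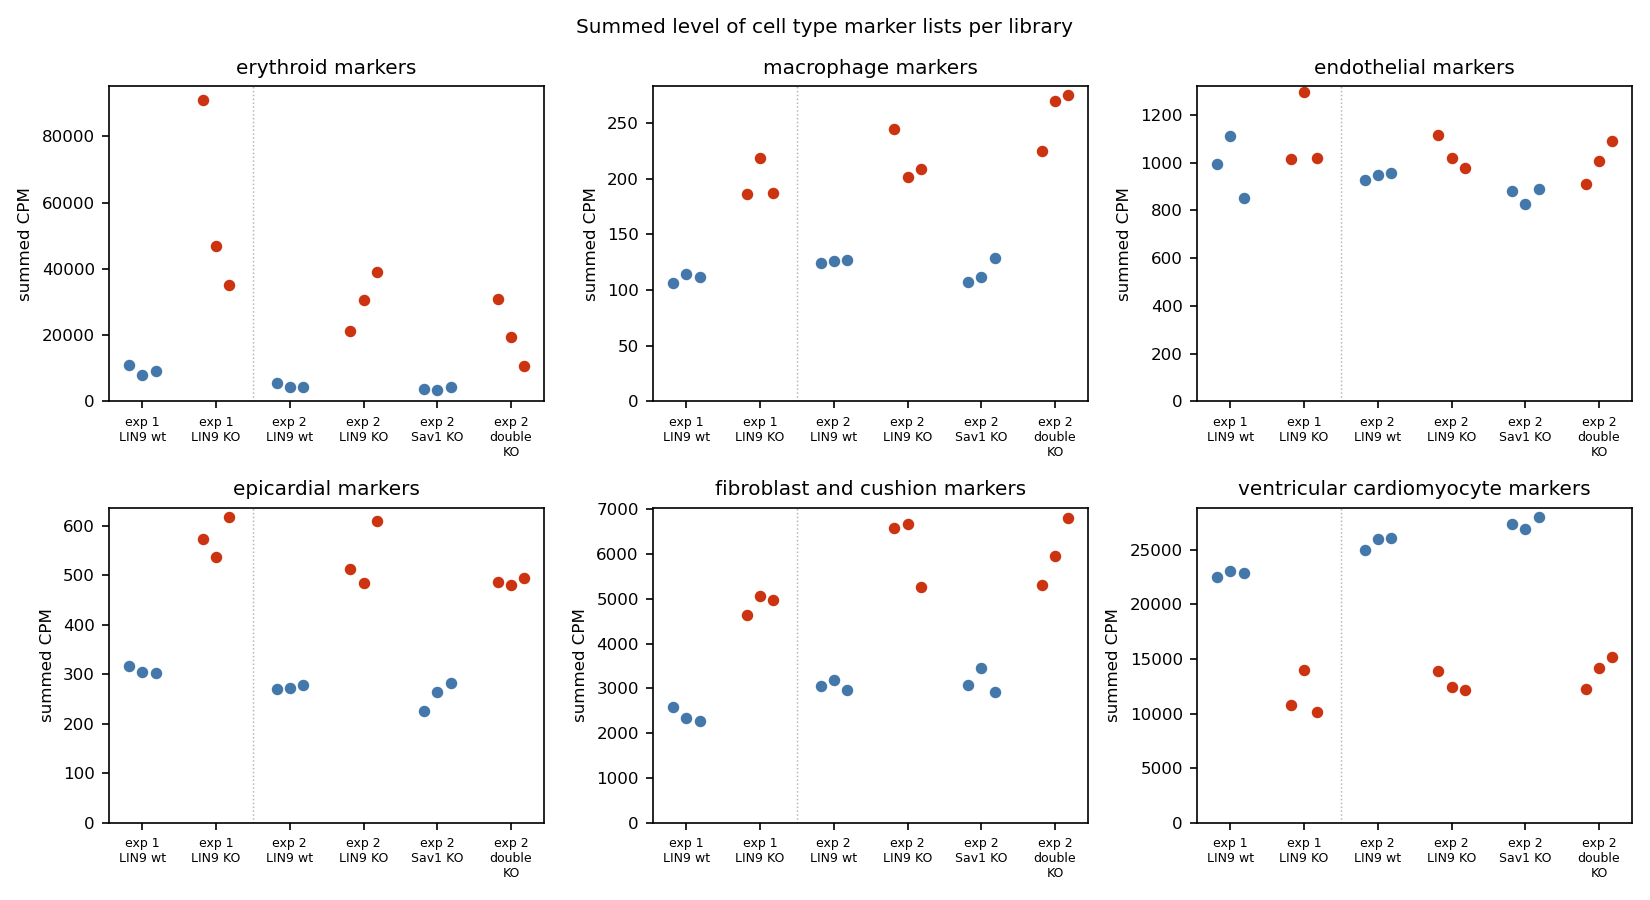
Summed CPM of 6 cell type marker lists in each library, on linear axes from 0, with blue for LIN9 wt and red for LIN9 KO backgrounds. Cardiomyocyte sums are lower and erythroid, macrophage, fibroblast and epicardial sums higher in the LIN9 KO libraries of both experiments.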

How the data were processed

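RNA-seq of poly(A) RNA from heart ventricles was made with the NEBNext Ultra II kit on a NextSeq sequencer. The deposited values are raw read counts per Ensembl gene. Per the labels and the study's methods, the authors aligned the reads to mm10 (TopHat2 2.1.0 and Bowtie2 are named in the submitters' processing notes). They then reduced the libraries of an experiment to the smallest number of mappable reads and counted them with summarizeOverlaps. The overlap mode and strand setting are not given in the sources used here, and the 4 listed genes with 0 counts in all libraries (Actc1, Alas2, Slc7a5 and Spg7) lie wholly inside the span of another gene.

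From the counts, CPM were computed with TMM factors in edgeR 4.0.16 (R 4.3.3), and log2 differences with the quasi-likelihood test over genes with a mean count above 1, with Benjamini-Hochberg adjustment over all tested genes and a threshold of 0.05. Experiment 1 was fitted on its 6 libraries and experiment 2 on all 12 together. A repeated identifier was kept once, which dropped 4 rows per table. The SE is the size of the log2 difference divided by the square root of the F statistic, and intervals are 1.96 SE either side. They are not widened for the few libraries, so they can be narrower than the test implies. In the Sav1 comparison with LIN9 KO, the intervals of Atf5 (-0.706 to -0.00798) and Psat1 (0.00355 to 0.5) leave out 0. Their unadjusted p by edgeR was 0.0547 and 0.0566. The groups were taken from the labels. Replicates were compared for duplicates, with a chi-square per degree of freedom of 1.23 or more for every pair, and none was merged. The ChIP-seq files of the series were not used here. Alternatives were RLE factors, DESeq2 1.42.0, other filters, fits on 6 libraries, a replicate block and leaving out each library. The scripts were tested on simulated data.

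Same-numbered libraries deviated together in all 3 pairs for LIN9 with Sav1 wt (r = 0.637, 0.257 and 0.338) and Sav1 with LIN9 wt (r = 0.33, 0.151 and 0.102), and the pairing there comes from these correlations alone, as no source names a shared litter or day. The 10 genes, the gene lists and the tests were chosen with earlier results of these data known. Other genes named were, per list, up to 3 higher and 3 lower by size of change in experiment 1 among called genes with at least 5 CPM on average and groups that do not overlap, or the 2 most abundant where a list had none, and the 5 genes with the highest r with Gdf15. Genes at or near 0 counts were named after their values were seen. Pdia6, Dnaja3 and Trap1 were named for their calls in all 3 LIN9 comparisons.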

Additional observations from a re-analysis of the deposited data

Results flagged for a closer look

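Slc3a2, the transporter heavy chain, was flagged because Sav1 deletion went with opposite directions in the 2 LIN9 backgrounds. With LIN9 wt every Sav1 KO library was above every Sav1 wt library (59.5, 69.9 and 64.4 against 56.5, 58.5 and 58.1 CPM), a log2 difference of 0.163, and with LIN9 KO every Sav1 KO library was below (86.5, 89.0 and 85.0 against 98.8, 115 and 95 CPM), a log2 difference of -0.246. Neither passed the threshold (edgeR, adjusted p = 0.999 and 0.356). Groups without overlap in these directions were found for 5.97% and 7.87% of tested genes. The interaction term, which tests the difference between the 2 changes, was -0.41 and did not pass the threshold (edgeR, adjusted p = 0.68). This was 1 gene among 37 examined in this way, and it is given as a value with no explanation.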

How the results depend on the processing

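Gdf15, Trib3 and Psat1 kept their direction in the 3 LIN9 comparisons under each alternative run, and Trib3 and Psat1 stayed past the threshold. Over fits without 1 library Gdf15 ranged from 3.02 to 3.41 in experiment 1, 3.92 to 4.30 with Sav1 wt and 3.58 to 3.67 with Sav1 KO, Trib3 from 1.90 to 2.43, 2.42 to 2.90 and 1.34 to 2.26, and Psat1 from -0.49 to -0.40, -1.04 to -0.80 and -0.89 to -0.71. Ddit3 ranged from 1.20 to 1.57, 0.87 to 1.33 and 0.61 to 1.22, and lost its call in 0, 3 and 4 of these 6 fits. Of the 9 genes other than Gdf15, 3 to 5 passed in experiment 1 and 2 to 3 in each of the other 2. The 5 were reached without LIN9 KO replicate 2, where Atf4 and Chac1 passed too. With all genes of at least 1 count Chac1 passed in experiment 1 (adjusted p = 0.0436), and with a mean count of at least 10 it was not tested. No library left out brought any of the genes tested past the threshold in the Sav1 comparisons or the interaction. Small differences that changed sign when 1 library was left out were Mthfd2 (-0.0545 to 0.209 in experiment 1 and -0.137 to 0.188 with Sav1 wt), Atf4 (-0.153 to 0.0408 with Sav1 wt and -0.0584 to 0.0727 with Sav1 KO), Asns (-0.14 to 0.242 with Sav1 KO), Cebpg (-0.0311 to 0.137 in experiment 1, -0.0989 to 0.12 with Sav1 wt and -0.0138 to 0.058 with Sav1 KO), Eif2ak1 (-0.178 to 0.0377 with Sav1 KO), Manf (-0.165 to 0.188 with Sav1 KO), Ret (-0.31 to 0.77 in experiment 1 and -1.11 to 1.56 with Sav1 KO) and Lin9 (-0.326 to 0.0189 with Sav1 KO); the cause was not tested. Cebpg with Sav1 wt also changed sign by DESeq2 (-0.00129), with RLE factors (-0.00144) and with 6 libraries (-0.0227).

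With the replicate block, where numbers pair the samples by their correlations, no call among the 10 genes changed, and Ddit3 with Sav1 wt stood at 1.19 (adjusted p = 0.0341). In the other comparisons libraries share only a number, with correlations of 0.0576 to 0.285 in experiment 1 and -0.0669 to -0.0199 for LIN9 with Sav1 KO. There the block gave Atf4 0.27 in experiment 1 (adjusted p = 0.0347) and Ddit3 1.00 with Sav1 KO (adjusted p = 0.0657), and the other ATF4 outputs counted 7 in place of 4 in experiment 1. Over all genes Sav1 KO against Sav1 wt with LIN9 KO called 2 in the design used, 84 with the block, 77 by DESeq2, 309 with all genes of at least 1 count and 0 to 377 without 1 library, and with LIN9 wt it called 3, against 22 with all genes and 31 with 6 libraries, and 0 to 2 without 1 library. In experiment 1 the block counted 3 tRNA synthetases higher and 3 lower. By DESeq2 the calls of Farsb in experiment 1 (adjusted p = 0.0712) and of Mthfd1l and Shmt1 with Sav1 KO (adjusted p = 0.0751 and 0.0971) were lost, and with all genes of at least 1 count that of Slc1a4 in experiment 1 (adjusted p = 0.0679). Depth limits Chac1 and, in LIN9 wt hearts of experiment 2, Gdf15.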
